A study of Mus musculus with 6 samples.

Results

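The chaperone genes described here are the mouse genes of the HSP70 and HSP110, small heat shock protein, HSP60 and HSP10, DNAJ and CCT families. They were chosen by symbol among the array probes that name a single gene, and the brightest probe stood for each gene. The rule found 80 of the 19938 genes tested, read from 101 single-gene probes. Expression was compared in pre-B cells transformed with BCR-ABL1, the oncogene of Philadelphia chromosome-positive acute lymphoblastic leukaemia, from the FvB/N strain. All cells were homozygous for floxed alleles of Spry1 and Spry2 and had received 0.5 µM 4-hydroxytamoxifen for 2 days. Control cells (ERT, 3 arrays) carried PMIP-ERT2, which is labelled without Cre. The other cells (CRE, 3 arrays) carried PMIP-CRE-ERT2; fused to ERT2, the Cre recombinase is activated by tamoxifen and removes floxed DNA. Deletion of Spry1 and Spry2 and exposure to active Cre cannot be told apart, because no cells with Cre and intact alleles were analysed here. Nothing in the labels names separate cultures behind the 3 arrays of a group. The p-values therefore rest on a spread between samples that may be technical.

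Chaperones help other proteins fold, assemble, cross membranes or be degraded. HSP70 proteins bind and release unfolded stretches through cycles of ATP use, DNAJ proteins bring them clients and trigger ATP hydrolysis, and exchange factors reset them. Chaperonins enclose clients in a barrel: HSP60 with its lid HSP10 in mitochondria, and the CCT ring, built from the products of Tcp1 and its Cct relatives, in the cytosol, where actin and tubulin are its best-known clients. Heat shock factor HSF1 raises a subset of these genes when misfolded proteins build up, and the unfolded protein response raises another subset in the endoplasmic reticulum (ER). Not every gene with a matching symbol is a chaperone. Hspg2 encodes the matrix proteoglycan perlecan and Hspb11 an intraflagellar transport protein, and both were kept because the rule takes them.

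The labels were checked first. Spry2 (probe 10422227) lay at 8.57, 8.37 and 8.33 in ERT and at 7.29, 7.27 and 7.51 in CRE on the log2 scale, and Spry1 (probe 10491721) at 9.04, 9.25 and 9.11 against 8.35, 8.41 and 8.11. The groups did not overlap for either gene (limma adjusted p = 0.00162 and 0.00462; exact two-sided permutation p = 0.1 each, the smallest that 3 arrays against 3 allow). The mean of 12 pre-B markers lay between 12.03 and 12.17 on all arrays, but Rag2, a recombinase gene of developing lymphocytes, was lower in CRE (-0.68 ± 0.05 SE, limma adjusted p = 0.00162), the 1 member of that list to pass. Its partner Rag1, picked after its value was seen, was at -0.31 (adjusted p = 0.138). The mean of 17 measured mast cell markers lay between 7.18 and 7.704 in ERT and between 7.84 and 8.83 in CRE, with 3 members higher, 0 lower and 16 fold changes positive. The 3 were Mcpt2, Tpsab1 and Tpsb2. The mast cell carboxypeptidase gene Cpa3 was at 11.27 to 12.61 in ERT and 12.50 to 13.47 in CRE, and it did not pass (limma adjusted p = 0.148). Means of the myeloid, T cell, erythroid and stromal lists lay between 6.86 and 7.30 on all arrays, and none of their members passed the threshold. In the myeloid list, 7 of 12 fold changes were positive. Its member Lyz2, picked after its values were seen, was at 8.42 to 8.91 in ERT and 9.05 to 10.12 in CRE (1.07, limma adjusted p = 0.0651). ERT 1 stood apart: it held the highest of the 6 values for 41 of the 80 chaperone genes (51.3%), and for 47.4% of all genes, and it had the lowest array weight (0.322 against 0.662 to 2.36).

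Few chaperone genes passed the threshold between the groups, and those that did moved little. Hspa14 and Cct8 fell and Dnajb14 rose at a limma adjusted p under 0.05, where adjustment was over all genes. That is 2 of 80 lower (2.5%) and 1 of 80 higher (1.25%), beside 1.12% lower and 0.797% higher among all genes tested (1.92% in either direction). The median log2 fold change of the 80 genes was -0.05, with quartiles of -0.13 and 0.01, beside -0.03 for all genes with quartiles of -0.10 and 0.03. Negative fold changes made up 71.3% of the members (57 of 80) and 63.1% of all genes. All 3 ERT arrays lay above all 3 CRE arrays for 27 members (33.8%, against 18.2% of all genes), and the reverse held for 3 members, Hspa2, Dnajb14 and Dnajc24 (3.75%, against 6.59%). Without Hspg2 the counts of called genes were the same and the median was -0.05. At an unadjusted p under 0.05 there were 24 members (30.0%), beside 3605 of all genes (18.1%). The shares of all genes in this paragraph are the ones to set beside the counts given below for groups of genes. By signal, 65 of the 80 lay above the 40th percentile of all genes, and the 15 dim members included 4 of the 8 small heat shock protein genes, among them Hspb1. Of the 65 members, 33.8% had an unadjusted p under 0.05, beside 24.9% of all genes above that percentile. ERT lay above CRE without overlap for 36.9% of the 65 and 24.8% of those genes.

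**Figure D1:**
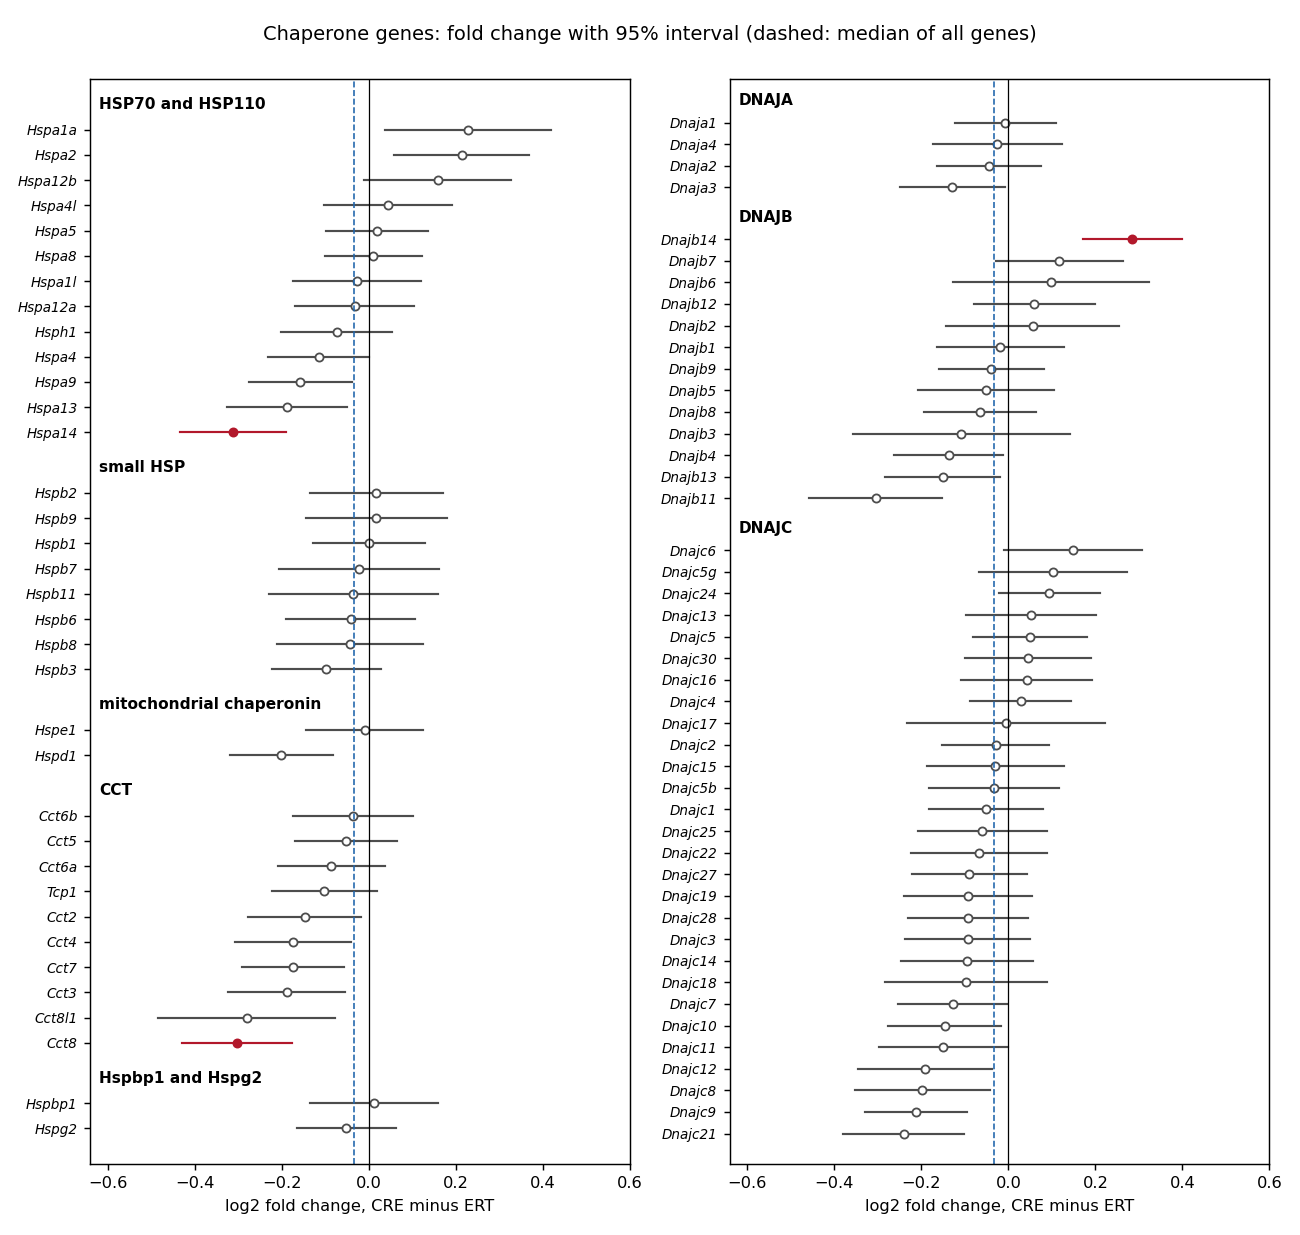
Log2 fold change (CRE minus ERT) of each of the 80 chaperone genes with its 95% interval from the limma fit, ordered within classes; filled red points passed the threshold of 0.05 on the adjusted p. The dashed line is the median of all genes tested (-0.03); Hspa14 and Cct8 lie lowest among the called genes and Dnajb14 highest, and no interval reaches 0.5 in size.

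Hspa14 encodes an HSP70 relative that works at the ribosome together with the DNAJ protein Dnajc2. Its probe (10479775) read 11.44, 11.41 and 11.37 in ERT and 11.04, 11.13 and 11.12 in CRE. The lowest ERT array exceeded the highest CRE array by 0.24, and the 3 arrays of each group lay close together. The log2 fold change was -0.31 ± 0.05 (SE; 95% interval -0.43 to -0.19; limma adjusted p = 0.0334), which left 80.6% of the ERT signal. Its partner Dnajc2, named here after its value was seen, was at 10.98, 10.91 and 10.92 in ERT and 10.88, 10.97 and 10.88 in CRE. These groups overlapped, and the difference was -0.03 ± 0.05 (SE, adjusted p = 0.832).

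Cct8 encodes the theta subunit of the CCT ring. Its probe (10440600) read 12.48, 12.43 and 12.52 in ERT and 12.18, 12.22 and 12.12 in CRE. The groups were 0.21 apart at their nearest arrays. The log2 fold change was -0.30 ± 0.06 (SE; 95% interval -0.43 to -0.18; limma adjusted p = 0.0374), and 81.1% of the ERT signal was left.

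Dnajb14 encodes a DNAJ protein anchored in the ER membrane. Its probe (10496387) read 8.004, 7.98 and 7.95 in ERT and 8.28, 8.24 and 8.27 in CRE, a rise to 122% of the ERT signal. The nearest arrays of the groups were 0.24 apart, and the log2 fold change was 0.28 ± 0.05 (SE; 95% interval 0.17 to 0.40; limma adjusted p = 0.0365). A pair of other probes, which the annotation assigns to both Dnajb14 and Pin4, differed by -0.05 and -0.07 (adjusted p = 0.749 and 0.643 in a fit over every probe). What share of their signal comes from Dnajb14 was not tested.

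The promoters of the 3 called genes are shown for reference, and a part of these sequences in the calls was not tested. Each line gives the 250 bases before the RefSeq start, from GRCm38.p6, read along the gene, with capitals marking CCAAT and the GC box GGGCGG on either strand.
Hspa14, chr2:3512815-3513064, minus strand: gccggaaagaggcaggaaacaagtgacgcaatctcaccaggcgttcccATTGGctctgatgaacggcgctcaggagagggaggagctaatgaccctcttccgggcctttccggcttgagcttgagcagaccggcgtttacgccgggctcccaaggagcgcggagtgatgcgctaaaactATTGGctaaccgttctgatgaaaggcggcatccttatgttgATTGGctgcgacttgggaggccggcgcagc
Cct8, chr16:87495870-87496119, minus strand: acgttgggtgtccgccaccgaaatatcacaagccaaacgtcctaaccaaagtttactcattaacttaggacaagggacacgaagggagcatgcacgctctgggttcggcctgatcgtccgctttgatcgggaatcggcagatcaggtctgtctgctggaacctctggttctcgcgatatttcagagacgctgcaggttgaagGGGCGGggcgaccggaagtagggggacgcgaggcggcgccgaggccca
Dnajb14, chr3:137867425-137867674, plus strand: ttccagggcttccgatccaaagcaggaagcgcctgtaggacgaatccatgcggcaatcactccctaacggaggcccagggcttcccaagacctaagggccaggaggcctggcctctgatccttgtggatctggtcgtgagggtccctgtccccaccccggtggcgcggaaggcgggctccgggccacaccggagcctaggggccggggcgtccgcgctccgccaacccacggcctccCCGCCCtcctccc
Promoter windows, from 250 bases before to 50 after the start, were matched for 67 of the 80 members. A GC box was found in 50 of these (74.6%), in 52.9% of the 15614 tested genes with a window and in 38.2% of all 27025 genes with one. CCAAT was in 28 of 67 (41.8%, against 41.7% of tested genes), and the E-box CACGTG, bound by MYC among others, in 6 of 67 (8.96%, against 9.498%). Members with a GC box had a median log2 fold change of -0.04, and those without it -0.09. For CCAAT the medians were -0.08 and -0.04.

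These 3 calls sit near the threshold. Without each array in turn, the adjusted p of limma ran from 0.0558 to 0.159 for Hspa14, from 0.0621 to 0.186 for Cct8, and from 0.0460 to 0.177 for Dnajb14, which passed only without ERT 1. The share of all genes called lower also fell in these fits, to between 0.0903% and 0.557%. With a covariate for the mean of the mast cell markers, 0 members passed, and the log2 fold changes of Hspa14, Cct8 and Dnajb14 were -0.26, -0.30 and 0.25 (limma adjusted p = 0.356, 0.303 and 0.356), with the signs kept. That mean was higher on every CRE array than on any ERT array. With 6 arrays, a fit can therefore separate the covariate from the group only in part. Of the floxed genes, Spry2 passed in this fit and Spry1 did not (limma adjusted p = 0.0113 and 0.0619). In a fit over every probe of the array, chosen after seeing the data, 0 members passed. The limma adjusted p of Hspa14, Cct8 and Dnajb14 there was 0.108, 0.111 and 0.108. The part of the mast cell markers in these results was not tested further. In RNA of a whole culture, fewer cells of a type and less RNA per cell cannot be told apart.

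**Figure D2:**
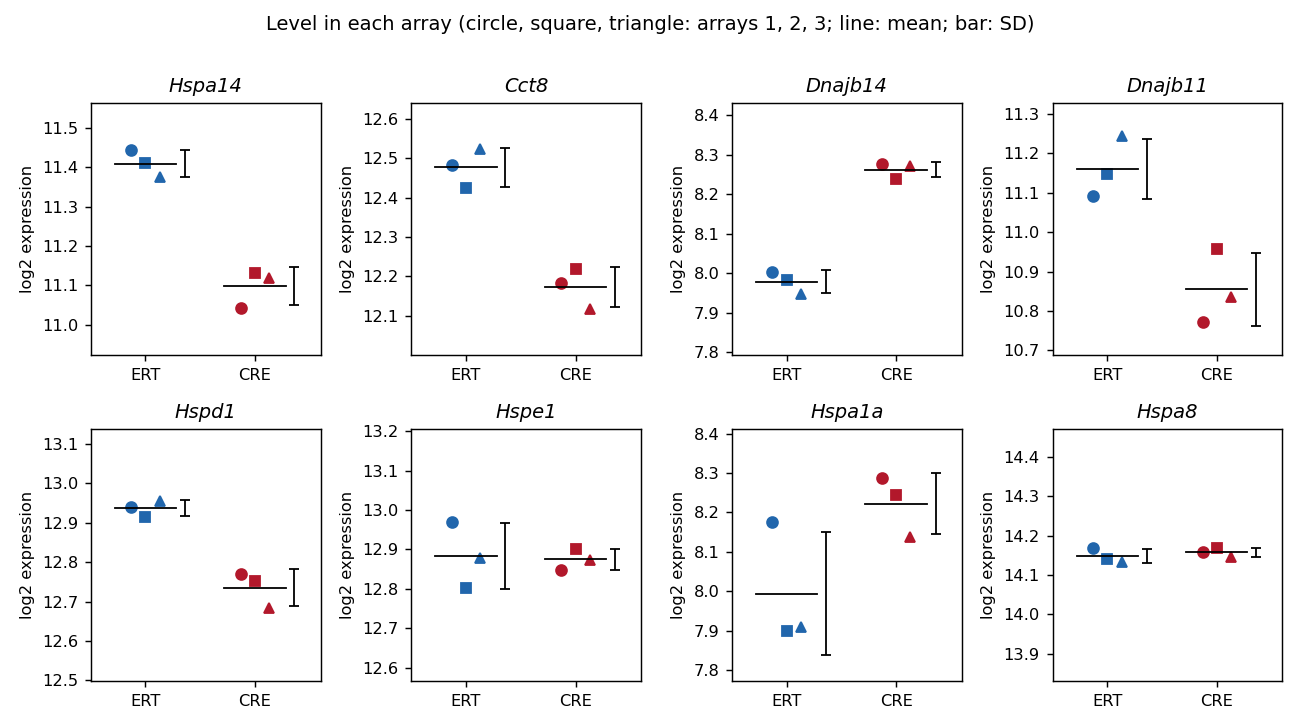
Log2 expression of 8 chaperone genes in each array, with ERT in blue and CRE in red; circles, squares and triangles are arrays 1, 2 and 3, the line is the mean and the bar the SD (n = 3 each), and every panel spans the same 0.64 log2 units. Groups are apart for Hspa14, Cct8, Dnajb14, Dnajb11 and Hspd1, and overlap for Hspe1, Hspa1a and Hspa8.

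Among HSP70 and HSP110 genes, 1 of 13 fell (Hspa14), 0 rose, 7 fold changes were negative, and the median was -0.03. An unadjusted p under 0.05 was found for 5 (38.5%), beside 18.1% of all genes and 24.9% of those above the 40th percentile of signal. The constitutive cytosolic HSP70 gene Hspa8 was at 14.17, 14.14 and 14.13 in ERT and 14.16, 14.17 and 14.15 in CRE. The groups overlapped on a narrow range, and the difference was 0.01 ± 0.05 (SE, adjusted p = 0.940). Its 3 single-gene probes differed by 0.01, 0.01 and 0.07. The ER HSP70 gene Hspa5 was equally level, at 12.97, 12.97 and 12.96 against 12.96, 13.04 and 12.96 (0.02 ± 0.05 SE, adjusted p = 0.892). The mitochondrial HSP70 gene Hspa9 was lower on all CRE arrays, at 12.65, 12.57 and 12.56 against 12.42, 12.46 and 12.43. It did not pass (-0.16 ± 0.05 SE, adjusted p = 0.151). Hsph1, an HSP110 exchange factor that also belongs to the heat shock response, was at -0.07 ± 0.06 (SE, adjusted p = 0.551).

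The positive end of this class held Hspa1a, Hspa2 and Hspa12b. Hspa1a, the stress-inducible HSP70 gene, was at 8.17, 7.90 and 7.91 in ERT and 8.29, 8.24 and 8.14 in CRE. ERT 1 overlapped the CRE arrays, and the difference of 0.23 ± 0.08 (SE) did not pass (limma adjusted p = 0.189). It passed with array weights (adjusted p = 0.0329), and with the mast cell covariate it was at 0.08 (adjusted p = 0.863). Hspa1a and its near-identical neighbour Hspa1b cannot be separated with certainty by hybridisation, and Hspa1b has no single-gene probe here. A brighter probe assigned to both genes (ERT mean 9.95), picked after its values were seen, differed by 0.39. It did not pass in a limma fit over every probe (adjusted p = 0.0873). Hspa2, an HSP70 gene best known from the testis, was at 8.34, 8.54 and 8.44 against 8.67, 8.57 and 8.72, with groups apart by 0.03 (0.21 ± 0.07 SE, adjusted p = 0.140). Hspa12b, a distant relative, was at 0.16 ± 0.07 (SE, adjusted p = 0.312) on a dim probe.

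All 10 CCT genes had negative fold changes (median -0.16). Cct8 alone passed. An unadjusted p under 0.05 was found for 6, beside 18.1% of all genes and 24.9% of those above the 40th percentile of signal. For the 8 subunits of the ring, Tcp1, Cct2 to Cct5, Cct6a, Cct7 and Cct8, every ERT array lay above every CRE array. That pattern was found in 18.2% of all genes and 24.8% of those above the 40th percentile of signal. The mean level of the 8 subunits was 12.87, 12.80 and 12.84 in ERT and 12.66, 12.72 and 12.67 in CRE, a difference of -0.15 (12.84 ± 0.04 against 12.68 ± 0.03, SD, n = 3 each). The subunits are read from the same 6 RNA samples, so they are not 8 independent observations.

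Within the ring the sizes differed. After Cct8, the next largest differences were those of Cct3 at -0.19 ± 0.06 (SE), Cct7 at -0.17 ± 0.05 and Cct4 at -0.17 ± 0.06, with limma adjusted p = 0.133, 0.117 and 0.156. Cct2 (-0.15) and Tcp1 (-0.10) followed. Cct6a (-0.09) and Cct5 (-0.05) were nearest to 0, and their groups were separated by 0.003 and 0.004 only. Cct5, for example, was at 12.58, 12.51 and 12.50 in ERT and 12.46, 12.48 and 12.50 in CRE. The 95% intervals of Cct8 (-0.43 to -0.18) and Cct5 (-0.17 to 0.07) did not overlap, but their difference was not tested. Cct2, Cct3, Cct4 and Cct7 passed beside Cct8 in the fit with an intensity trend, where 4.12% of all genes were called lower. With the mast cell covariate they were at -0.23, -0.11, -0.10 and -0.17 (adjusted p = 0.430, 0.749, 0.763 and 0.556). The 2 genes outside the ubiquitous ring, Cct6b, a testis form of the zeta subunit, and Cct8l1, a theta-like gene, were dim, at 5.98 and 6.82 in ERT. They differed by -0.04 and -0.28 (adjusted p = 0.812 and 0.140).

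**Figure D3:**
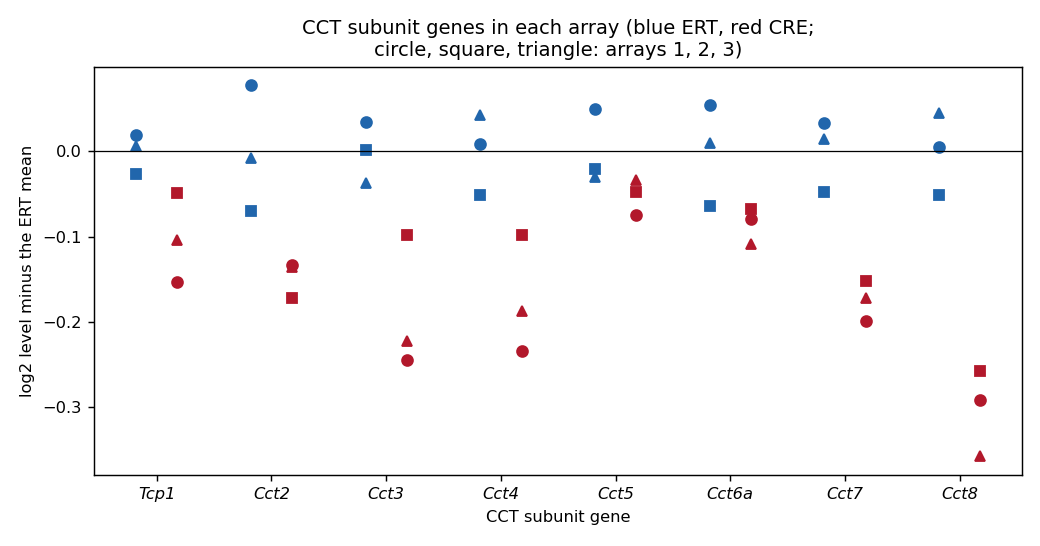
Level of the 8 CCT ring subunit genes in each array, as log2 units from the gene's ERT mean; blue is ERT, red is CRE, and circles, squares and triangles are arrays 1, 2 and 3. All CRE points lie below all ERT points of the same gene, by the widest margin for Cct8 (0.21) and by 0.003 for Cct6a.

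Partners of the ring were taken from a separate list of prefoldin, CCT cofactor and tubulin cofactor genes. Of 14 measured, 2 fell (14.3%, against 1.12% of all genes) and 0 rose, and the median was -0.10. Negative fold changes were 13 of 14 (92.9%, against 63.1% of all genes). Tbca, which encodes tubulin cofactor A, a partner of newly folded beta-tubulin, was at 11.50, 11.42 and 11.59 in ERT and 11.15, 11.15 and 11.17 in CRE (-0.35 ± 0.06 SE, limma adjusted p = 0.0314). Pfdn5, a prefoldin subunit gene, was at 11.43, 11.39 and 11.35 against 11.12, 11.08 and 10.99 (-0.33 ± 0.06 SE, adjusted p = 0.0362). The groups were apart by 0.25 and 0.23. Neither gene passed without any single array (adjusted p from 0.0552 to 0.156 for Tbca and from 0.0607 to 0.174 for Pfdn5) or with the mast cell covariate (adjusted p = 0.215 and 0.1801; log2 fold changes -0.37 and -0.38).

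The mitochondrial chaperonin pair parted. Hspd1, which encodes HSP60, was at 12.94, 12.92 and 12.95 in ERT and 12.77, 12.75 and 12.68 in CRE, groups 0.14 apart (-0.20 ± 0.05 SE, limma adjusted p = 0.0854). Hspe1, which encodes its lid HSP10, was at 12.97, 12.80 and 12.88 against 12.85, 12.90 and 12.87, with full overlap (-0.01 ± 0.06 SE, adjusted p = 0.959). Each gene had a second single-gene probe, and these gave -0.22 for Hspd1 and 0.01 for Hspe1. Within an array, the log2 ratio of Hspd1 to Hspe1 was -0.03, 0.11 and 0.08 in ERT and -0.08, -0.15 and -0.19 in CRE, a mean difference of -0.19 between groups that did not overlap. The ratio was looked at after the values were seen and has no test. Hspd1 passed under the signal filter, the intensity trend and array weights, and with the mast cell covariate it was at -0.23 (adjusted p = 0.414).

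With the Hspd1 start at 55087932, both genes are read outward from a shared stretch of chromosome 1. This stretch is shown because it holds the heat shock element searched for, which is GAA, TTC and GAA, each 2 bases from the next, on either strand. From that Hspd1 start on the minus strand to the Hspe1 start at 55088148 on the plus strand are 216 bases. A further RefSeq start of Hspd1 lies at 55088243, which is 95 bases beyond the Hspe1 start. From there Hspd1 is read across the Hspe1 start and the stretch. The stretch is given below along Hspe1, from GRCm38.p6 and RefSeq starts, and capitals mark a pair of overlapping matches.
Hspd1 and Hspe1, chr1:55088035-55088100, plus strand: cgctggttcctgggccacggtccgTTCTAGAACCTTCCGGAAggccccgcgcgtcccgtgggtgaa
The element was found in windows of 4 of 67 members, Hspd1, Hspe1, Hsph1 and Dnajb6 (5.97%), and in 0.564% of tested genes with a window. In Hsph1 the matches lie after the start. Log2 fold changes of the 4 genes ran from -0.20 to 0.10. A match describes letters in a window and is neither a shown binding site nor a cause.

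Members raised by HSF1 during heat shock, from a list of textbook targets, did not move together. Of 10 measured, 0 passed, 6 fold changes were negative, the median was -0.01, and 3 had an unadjusted p under 0.05 (Hspd1 at -0.20, Dnajb4 at -0.14 and Hspa1a at 0.23; Dnajb4 was picked after its value was seen). Dnajb1, the main inducible partner of HSP70, was at 10.18, 10.04 and 9.97 in ERT and 10.04, 10.01 and 10.08 in CRE. Its difference was -0.02 ± 0.06 (SE, adjusted p = 0.922), and the values of both groups interleaved. Dnaja1, the other abundant cytosolic partner, was at -0.01 ± 0.05 (SE, adjusted p = 0.964), with a second probe at -0.10. Hspb1, a small heat shock protein gene, was dim, at 7.27, 7.25 and 7.32 against 7.34, 7.29 and 7.21. The signs of Dnajb1, Dnaja1, Hspb1 and Hspe1 changed with quantile normalization or array weights, and none of these genes passed under any alternative.

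Outside the rule, 10 of 14 listed heat shock factor and HSF1 target genes were measured by single-gene probes. None passed in the limma fit (2 at an unadjusted p under 0.05), and the median was -0.09. Hsf2, a second heat shock factor, was at -0.19 ± 0.06 (SE, adjusted p = 0.145), and Ahsa1, which stimulates HSP90, at -0.17 ± 0.07 (SE, adjusted p = 0.225). Of 20 measured genes of HSP90 and its co-chaperones, 0 passed (6 at an unadjusted p under 0.05), and the median was -0.11. Negative fold changes were 18 of 20 (90%, against 63.1% of all genes). The stress-inducible HSP90 gene Hsp90aa1 was at 13.30, 13.31 and 13.31 in ERT and 13.27, 13.28 and 13.26 in CRE, apart by 0.02 (-0.04 ± 0.05 SE, adjusted p = 0.764). The co-chaperone genes Sugt1 (-0.31, adjusted p = 0.0627) and Ttc4 (-0.29, adjusted p = 0.0774) had the lowest p of that list. Of 12 exchange factor and partner genes of HSP70, 0 passed (5 at an unadjusted p under 0.05) and 11 were negative (91.7%, against 63.1% of all genes). Among the 12, Bag5 was at -0.23 and Grpel1, the mitochondrial exchange factor gene, at -0.24 (adjusted p = 0.0913 and 0.152).

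In the ER, the members did not change as a unit. Of 10 ER members, Dnajb14 rose, 0 fell, 7 were negative, and the median was -0.06. An unadjusted p under 0.05 was found for 4 (40%), beside 18.1% of all genes and 24.9% of those above the 40th percentile of signal. Dnajb11, an ER luminal partner of Hspa5, was at 11.09, 11.15 and 11.24 in ERT and 10.77, 10.96 and 10.84 in CRE. Its groups were 0.14 apart, and its difference was as large as that of the called genes but with a wider spread (-0.31 ± 0.07 SE, limma adjusted p = 0.0587). It passed under the signal filter, centred arrays, the intensity trend, array weights or the replicate number as a block (adjusted p = 0.0268, 0.0478, 0.0201, 0.0129 and 0.0464), and with the mast cell covariate it was at -0.16 (adjusted p = 0.621). Hspa13 (-0.19) and Dnajc10 (-0.15), an ER reductase with a J domain, were also lower on all CRE arrays without passing (adjusted p = 0.143 and 0.220). Both were picked after their values were seen. Dnajb9 (-0.04) and Dnajc3 (-0.09), both raised by ER stress in many cells and also picked later, overlapped.

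The ER stress element, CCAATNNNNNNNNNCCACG on either strand, was found in windows of Dnajc3 and Hspa5 among 67 members and in 0.134% of tested genes with a window. The stretches are shown because both genes are textbook targets of the unfolded protein response and neither passed the threshold here. Capitals mark the match, from GRCm38.p6 and RefSeq starts.
Hspa5, chr2:34772001-34772067, plus strand: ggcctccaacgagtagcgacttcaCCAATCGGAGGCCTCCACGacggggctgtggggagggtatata
Dnajc3, chr14:118937803-118937869, plus strand: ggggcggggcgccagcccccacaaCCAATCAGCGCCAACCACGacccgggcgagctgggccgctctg
Among 22 other genes of ER folding and the unfolded protein response, 1 rose (4.55%, against 0.797% of all genes) and 0 fell. Negative fold changes were 18 of 22 (81.8%, against 63.1% of all genes), and the median was -0.04. The gene that rose was Xbp1, which encodes a transcription factor of this response that also drives plasma cell differentiation. It was at 12.41, 12.27 and 12.32 in ERT and 12.72, 12.69 and 12.78 in CRE, apart by 0.28 (0.40 ± 0.06 SE, limma adjusted p = 0.0192). It did not pass without ERT 2, ERT 3, CRE 1 or CRE 3 (adjusted p = 0.0800, 0.0893, 0.0581 and 0.131) or with the mast cell covariate (0.33, adjusted p = 0.255). Ern1, which encodes the sensor that splices Xbp1 mRNA, was at 0.28 ± 0.07 (SE, adjusted p = 0.0804), and the ER HSP90 gene Hsp90b1 at -0.01 ± 0.05 (SE, adjusted p = 0.958).

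**Figure D4:**
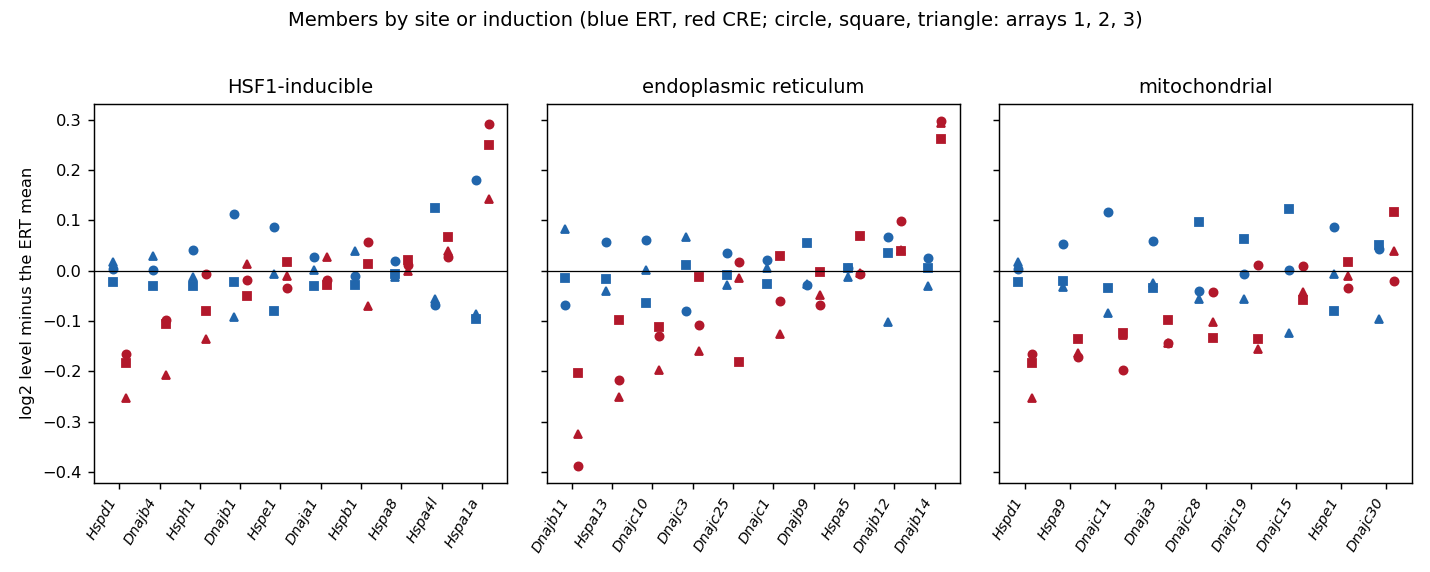
Levels of the HSF1-inducible, ER and mitochondrial chaperone genes in each array, as log2 units from the gene's ERT mean and ordered by fold change; blue is ERT, red is CRE, and circles, squares and triangles are arrays 1, 2 and 3. Most HSF1-inducible genes lie around 0 on all arrays. ERT lies above CRE without overlap for Hspd1, Dnajb4, Hspa13, Dnajb11, Dnajc10, Hspa9, Dnaja3 and Dnajc11. CRE lies above ERT without overlap for Dnajb14.

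Of 9 measured mitochondrial members, 0 passed, and the median was -0.09. Negative fold changes were 8 of 9 (88.9%, against 63.1% of all genes). An unadjusted p under 0.05 was found for 4 (44.4%), beside 18.1% of all genes and 24.9% of those above the 40th percentile of signal. Every ERT array lay above every CRE array for Hspd1, Hspa9, Dnaja3 and Dnajc11 (44.4% of the 9). That pattern was found in 18.2% of all genes and 24.8% of those above the 40th percentile. Dnajc11 was picked after its values were seen. Dnaja3, the mitochondrial partner of Hspa9, was at 10.86, 10.77 and 10.78 against 10.66, 10.71 and 10.66 (-0.13 ± 0.05 SE, adjusted p = 0.246). Of 13 mitochondrial chaperone and protease genes outside the rule, 0 passed (7 at an unadjusted p under 0.05), and the median was -0.16. Negative fold changes were 12 of 13 (92.3%, against 63.1% of all genes). The inner membrane protease genes Yme1l1 (-0.17, adjusted p = 0.110) and Spg7 (-0.20, adjusted p = 0.142) had the lowest p of that list.

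The DNAJ genes, the largest family, were spread on both sides of 0. Of 13 DNAJB genes, Dnajb14 rose and 0 fell, with a median of -0.04. The 4 DNAJA genes (median -0.04) and the 28 DNAJC genes (median -0.06, 20 negative) held no called gene. At an unadjusted p under 0.05 there were 4 of 13 DNAJB genes (30.8%), 1 of 4 DNAJA genes and 7 of 28 DNAJC genes (25% each). The share was 18.1% of all genes and 24.9% of those above the 40th percentile of signal. None of the DNAJC genes named next passed. Dnajc21, which acts in maturation of the large ribosomal subunit, was at 11.41, 11.42 and 11.51 in ERT and 11.14, 11.29 and 11.19 in CRE (-0.24 ± 0.06 SE, limma adjusted p = 0.0816). Dnajc9, a histone chaperone, was at 11.49, 11.54 and 11.55 against 11.29, 11.36 and 11.30 (-0.21 ± 0.05 SE, adjusted p = 0.0732). Dnajc8, a splicing-associated protein, was at -0.20 ± 0.07 (SE, adjusted p = 0.165). All 3 had groups apart, by 0.12, 0.14 and 0.09. Dnajc12, picked after its values were seen, was close to Dnajc8 at -0.19 (adjusted p = 0.176), with groups 0.09 apart. Dnajc21 and Dnajc9 passed under the signal filter, the intensity trend and array weights. With the mast cell covariate they were at -0.13 and -0.15 (adjusted p = 0.682 and 0.595).

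At the positive end, Dnajc6, which encodes the clathrin uncoating factor auxilin, was at 9.05, 8.89 and 8.81 in ERT and 9.05, 9.03 and 9.12 in CRE (0.15 ± 0.07 SE, limma adjusted p = 0.307), with ERT 1 inside the CRE range. It passed with array weights (adjusted p = 0.0476). With the mast cell covariate it was at 0.07 (adjusted p = 0.866), and without each array in turn between 0.10 and 0.21. Dnajb7 (0.12), Dnajc5g (0.10) and Dnajb6 (0.10) did not pass, and the probes of Dnajb7 and Dnajc5g were dim. Dnajb6, a suppressor of protein aggregation, depended on the probe. Its single-gene probe was at 7.93, 7.85 and 7.95 in ERT and 8.15, 8.12 and 7.76 in CRE, whereas 4 probes shared with Gm4247 had ERT means of 12.72 to 12.97 and differed by -0.18 to -0.17 (adjusted p = 0.225 to 0.245 over every probe). Dnajc13, an endosomal protein gene with 15 single-gene probes, gave differences from -0.14 to 0.10, none of which passed.

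The 8 small heat shock protein genes held no called gene (0 at an unadjusted p under 0.05), with a median of -0.03. Hspb3 had the lowest p, at 7.05, 6.97 and 6.94 against 6.89, 6.84 and 6.92 (-0.10 ± 0.06 SE, adjusted p = 0.405), on a dim probe. Hspg2, the proteoglycan gene, was at 8.12, 8.10 and 8.11 against 8.09, 8.03 and 8.05 (-0.05 ± 0.05 SE, adjusted p = 0.655).

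The counts of called members differed between settings, and so did the share of all genes called. Leaving out genes below the 40th percentile of signal gave 1 higher and 6 lower of 65 members, beside 3.04% and 6.61% of all genes. Centring the arrays gave 1 and 3 of 80 (1.57% and 3.47% of all genes), the intensity trend 1 and 11 (1.84% and 4.12%), and array weights 3 and 7 (3.83% and 5.43%). Averaging probes or repeating quantile normalization gave 1 and 2, as with the deposited values (0.747% and 1.13%, and 1.85% and 1.68%), and the replicate number as a block 1 and 3 (1.48% and 1.43%). The mast cell covariate gave 0 and 0 (0.396% and 0.356%), and the fit over every probe 0 and 0 (0.0602% and 0.0351%). Without ERT 1 there were 1 and 0 (0.943% and 0.316%). The counts were 0 and 0 without ERT 2 (0.191% and 0.16%), ERT 3 (0.16% and 0.115%), CRE 1 (0.311% and 0.196%), CRE 2 (0.481% and 0.557%) and CRE 3 (0.155% and 0.0903%).

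Across the settings tried, the medians kept their order. The median of the 8 CCT subunit genes lay below that of the 80 chaperone genes, and the latter below that of all genes, under each. The CCT median was -0.16 with the deposited values, against -0.13 for quantile normalization or array weights and -0.11 with the mast cell covariate, where the median of all genes was -0.06. All 8 subunits had negative fold changes under every setting.

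**Figure D5:**
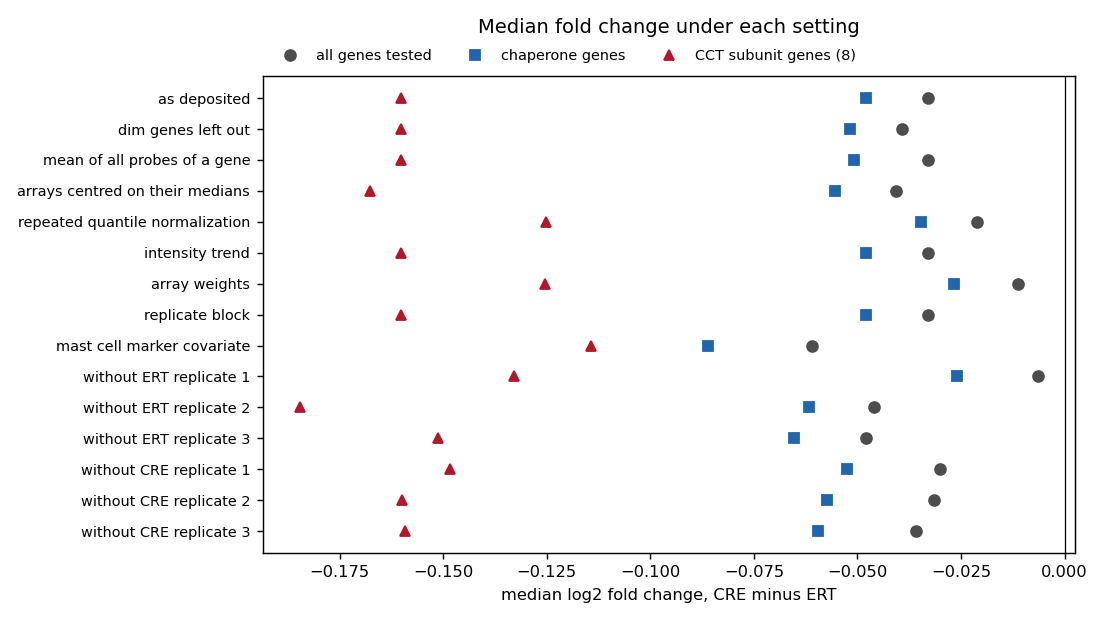
Median log2 fold change (CRE minus ERT) of all genes tested, the 80 chaperone genes and the 8 CCT ring subunit genes, for the deposited values and each alternative setting. The CCT median is -0.16 as deposited and the chaperone median -0.05, close to the -0.03 of all genes; the gap of the CCT genes is narrowest with the mast cell covariate.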

How the data were processed

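RNA of 3 ERT and 3 CRE samples was measured on 1-colour Affymetrix arrays. The deposited values are log2 intensities of 35556 probes per array. The submitters' processing notes name RMA and Partek 6.5; for their roles, the background correction and the build, the entry is: not given in the sources used here. Array medians lay between 7.73 and 7.81, and depth does not apply: the number of arrays limits the precision. The platform annotation gave 1 gene for 21789 probes, several for 1621 and none for 12146. The brightest single-gene probe stood for each of 19938 genes, and brightness varies with the probe. Groups were compared with limma 3.58.1 in R 4.3.3 (lmFit, eBayes, Benjamini-Hochberg over all genes, threshold 0.05), which was tested on simulated data. Members and lists were chosen with earlier results of these data known. Named genes were the called members, the 8 highest and 8 lowest fold changes and the lowest p in each class. The CCT ring subunits, textbook members and up to 2 genes per other list were added. Other chaperone genes described by their values were picked later. This is said where each is described, or only here for Cct6b, Dnajc13 and Dnajc24. Alternatives were a filter at the 40th percentile of signal, mean of probes, centred or quantile-normalized arrays, an intensity trend, array weights, a replicate block, the mean of the mast cell markers as covariate, each array left out, and every probe. Hspa1b, Hsp90ab1 and Hsf1 had no single-gene probe. Promoter windows came from RefSeq (GRCm38.p6).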

Additional observations from a re-analysis of the deposited data

Results flagged for a closer look

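A probe that the annotation assigns to both Hspa1a and Hspa1b (10450367), which stands for no gene in the comparisons above, lay higher on all CRE arrays. It was flagged for that separation among the 10 probes that name a member and another gene, so the separation is no test. Of all genes tested, 6.59% had CRE above ERT without overlap. Separation the other way was not flagged. The 4 probes shared by Dnajb6 and Gm4247 lay lower on all CRE arrays (-0.18 to -0.17). The flagged probe read 9.92, 9.98 and 9.94 in ERT and 10.40, 10.30 and 10.31 in CRE, groups 0.32 apart, a log2 difference of 0.39 ± 0.05 (SE). Its limma adjusted p over every probe was 0.0873, which does not pass. The single-gene probe of Hspa1a differed by 0.23 with overlapping groups.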

How the results depend on the processing

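With 3 arrays a group, the median SE of a chaperone gene's log2 fold change was 0.061. The smallest difference called among the members with the deposited values was several times that size (Dnajb14, 0.28). Dnajb11 at -0.31 did not pass, so smaller differences may have gone undetected. Beside 1 higher and 2 lower, the members called lower were 6 under the signal filter, 11 under the intensity trend and 7 with array weights, where 3 were higher; all genes were called lower more often too (6.61%, 4.12% and 5.43%). With the mast cell covariate and over every probe (chosen after seeing the data), 0 were higher and 0 lower, and the covariate moved the median to -0.086. Without each array in turn, 0 to 1 were higher and 0 lower, and the median ran from -0.065 to -0.026. With the replicate number as a block, 1 was higher and 3 lower (Dnajb11 added). Deviations of each gene from its group mean were also correlated between ERT and CRE arrays. In these deviations, same-numbered arrays correlated at 0.27, 0.34 and 0.03, and 4 of 6 arrays correlated best with their own number. That is a hint from the data of shared numbers that the labels do not explain. It is not shown by 1 of the 3 pairs, so the fit without the block was kept. Signs near 0 reversed with the mean of probes (Hspb1 -0.00897, Hspe1 4.50e-04), centring (Hspb1 -0.0069), quantile normalization (Dnaja1 0.035, Dnajb1 0.023, Hsp90b1 0.032, Hspa8 -0.014, Hspb1 -7.72e-04, Hspe1 0.025), array weights (Dnaja1 0.021, Dnajb1 0.019, Hspb1 -0.017, Hspe1 0.039) and the covariate (Dnajc5g -0.066, Hsp90b1 0.047, Hspb1 -0.042). With 1 array left out, Dnaja1 ran from -0.024 to 0.0073, Dnajb1 from -0.064 to 0.039, Hspb1 from -0.028 to 0.036, Hspe1 from -0.049 to 0.034, Hsp90b1 from -0.032 to 0.014 and Hspa5 from -0.0058 to 0.032. The cause was not tested.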
